A study of Homo sapiens with 8 samples.

Results

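The genes described here encode the AP-1 family and a close relative, 8 genes of the 49733 gene IDs in the files: FOS, FOSB, FOSL1 and FOSL2 (the FOS group), JUN, JUNB and JUND (the JUN group), and ATF3. They were taken by gene name, with earlier results of these data known, and all 8 were matched by Ensembl gene ID. AP-1 is a dimer of basic leucine zipper proteins, in which a FOS protein pairs with a JUN protein, or 2 JUN proteins pair, on a short palindromic DNA site. FOS, FOSB, JUN and JUNB are immediate early genes, which growth factors and stress switch on quickly through MAP kinases. FOSL1 (FRA-1) and FOSL2 (FRA-2) lack the strong activation domain of FOS, and ATF3 is a stress-response factor that pairs with JUN proteins. In liver cells AP-1 is known for its part in regeneration, stress and tumour growth.

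The cells were HepG2, a human line from a hepatocellular carcinoma, which keeps part of the hepatocyte programme. At 80% confluence they received fresh medium with benzo[a]pyrene (BaP) at 2 µM or with the vehicle DMSO at 0.5%, and the groups were BaP 12 h, BaP 24 h, DMSO 12 h and DMSO 24 h. BaP, a combustion product, binds the aryl hydrocarbon receptor, and its metabolites form DNA adducts. Each group held 2 poly-A RNA-seq libraries, from independent experiments per the labels.

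The estimated counts summed to between 2592272 and 16533490 per library, and BaP 24 h replicate 1 was the shallowest. Levels are CPM, counts scaled by library size. In that library a count of 0 allows up to 3 counts, a limit that covers counting error only. This is 1.16 CPM by the library's total count, without the TMM scaling used for the other CPM. CYP1A1, the aryl hydrocarbon receptor target that marks exposure, stood at 966 and 1060 CPM in BaP 12 h and at 376 and 306 CPM in BaP 24 h. It stood at 6.57 and 3.49 CPM in DMSO 12 h and at 1.61 and 1.50 CPM in DMSO 24 h. The hepatocyte markers ALB (1969 to 3098 CPM) and AFP (1242 to 2486 CPM) were high in every library, and the 8 hepatocyte markers together were lower with BaP. Their summed level was 18992 to 20266 CPM in BaP 12 h against 24876 to 27162 CPM in DMSO 12 h, and 21625 to 24131 CPM in BaP 24 h against 29352 to 33617 CPM in DMSO 24 h. Of these 8, APOB alone passed an adjusted p of 0.05 with BaP, with log2 fold changes of -0.81 at 12 h and -0.75 at 24 h. The others ran from -0.27 for TF to 0.06 for TTR at 12 h, and from -0.50 to 0.13 for the same genes at 24 h. In bulk RNA fewer cells of a type and less RNA per cell cannot be told apart. The 5 leukocyte markers summed to 46.3 to 49.9 CPM in BaP 12 h against 38.9 to 42.8 CPM in DMSO 12 h, and to 60.0 to 62.8 CPM in BaP 24 h against 39.4 to 40.8 CPM in DMSO 24 h. Of these 5, CD14 rose at both times and CD68 at 24 h, while PTPRC was at most 0.188 CPM and CD3E at 0. The 6 fibroblast and stellate markers, with DCN and LUM at 0, summed to 20.0 to 28.9 CPM in BaP 12 h against 35.3 to 59.9 CPM in DMSO 12 h, and to 25.8 to 31.5 CPM in BaP 24 h against 39.6 to 57.2 CPM in DMSO 24 h. Of these 6, PDGFRB fell with BaP at 12 h (-0.88 ± 0.16, adjusted p = 0.0020) and rose in DMSO over time (0.80 ± 0.15, adjusted p = 0.0063). The hepatocyte marker TTR rose in DMSO over time (1.35 ± 0.27, adjusted p = 0.048), the comparison in which FOS, JUN and FOSL2 rose. The 3 endothelial markers matched summed to at most 3.19 CPM, with KDR at 0. The part of these marker levels in the results on AP-1 genes was not tested. Mitochondrial transcripts took 17.1% to 18.7% of each library.

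FOSL1 was the AP-1 gene that was higher with BaP at both times. BaP 12 h libraries held 83.7 and 70.3 CPM and DMSO 12 h libraries 28.1 and 22.7 CPM of FOSL1. At 24 h it stood at 63.4 and 62.2 CPM with BaP, against 22.6 and 23.8 CPM with DMSO. Every BaP library was thus above every DMSO library, and the 4 DMSO libraries lay close together. FOSL1 rose 3.02-fold at 12 h (log2 fold change 1.60 ± 0.14 SE, adjusted p = 1.1e-06) and 2.71-fold at 24 h (1.44 ± 0.15, adjusted p = 3.4e-05) by edgeR's quasi-likelihood test with Benjamini-Hochberg adjustment over all 14746 genes tested, n = 2 libraries per group. In DMSO over time its difference was -0.14 ± 0.15 on the log2 scale (adjusted p = 0.73). Its call held in every alternative run at both times, with log2 fold changes of 1.43 to 1.76 at 12 h and 1.39 to 1.47 at 24 h.

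Of the 8 genes, 5 rose and 0 fell with BaP at 12 h, where 3.41% of all genes tested were called higher and 4.84% lower at an adjusted p under 0.05. Their median log2 fold change was 1.09, against 0.02 over all genes tested. After FOSL1 came ATF3, at 13.4 and 10.7 CPM in BaP 12 h against 4.06 and 5.10 CPM in DMSO 12 h. The groups did not overlap, and ATF3 rose 2.60-fold (1.38 ± 0.23, adjusted p = 8.2e-04), a call kept in every alternative. JUNB, the JUN protein known for a weaker activating role than JUN, stood at 30.7 and 33.9 CPM in BaP 12 h against 20.7 and 15.1 CPM in DMSO 12 h. It rose by 0.86 ± 0.16 on the log2 scale (adjusted p = 0.0020). JUN, the partner that gave the family its best known dimer with FOS, stood at 47.5 and 47.2 CPM in BaP 12 h against 30.8 and 28.4 CPM in DMSO 12 h (0.68 ± 0.14, adjusted p = 0.0042). FOSL2 stood at 60.9 and 48.2 CPM in BaP 12 h against 39.8 and 34.7 CPM in DMSO 12 h (0.54 ± 0.14, adjusted p = 0.019). For these 3 genes too, both BaP libraries lay above both DMSO libraries. How many of all genes tested had groups apart was not counted, so a lack of overlap, here and below, is a description only.

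The calls of the 3 smaller rises were lost in some fits that left out a single library and so kept 1 in its group. For JUN the log2 fold change was 0.67 without either BaP 12 h library, against 0.68 with all libraries. Without BaP 12 h replicate 1 the calls of FOSL2 (0.37, adjusted p = 0.37) and JUN (0.67, adjusted p = 0.053) were lost, and without BaP 12 h replicate 2 those of JUN (0.67, adjusted p = 0.051) and JUNB (0.77, adjusted p = 0.052). Without DMSO 12 h replicate 2, FOSL2 was not called (0.43, adjusted p = 0.17). JUN, JUNB and FOSL2 kept their direction in each of these fits.

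The other 3 genes were not called at 12 h. JUND, the JUN gene known for steady expression in resting cells, stood at 142 and 137 CPM in BaP 12 h against 126 and 138 CPM in DMSO 12 h, and the groups overlapped (0.08 ± 0.14, adjusted p = 0.84). FOSB had too few reads to follow. It stood at 1.28 and 0.92 CPM in BaP 12 h against 0.15 and 0.70 CPM in DMSO 12 h, and at 0 and 0.60 CPM in BaP 24 h against 0.51 and 1.50 CPM in DMSO 24 h. Its log2 fold change was 1.31 ± 0.75 at 12 h (adjusted p = 0.37) and -0.84 ± 0.88 at 24 h (adjusted p = 0.65), so no difference was detectable at this depth.

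**Figure D1:**
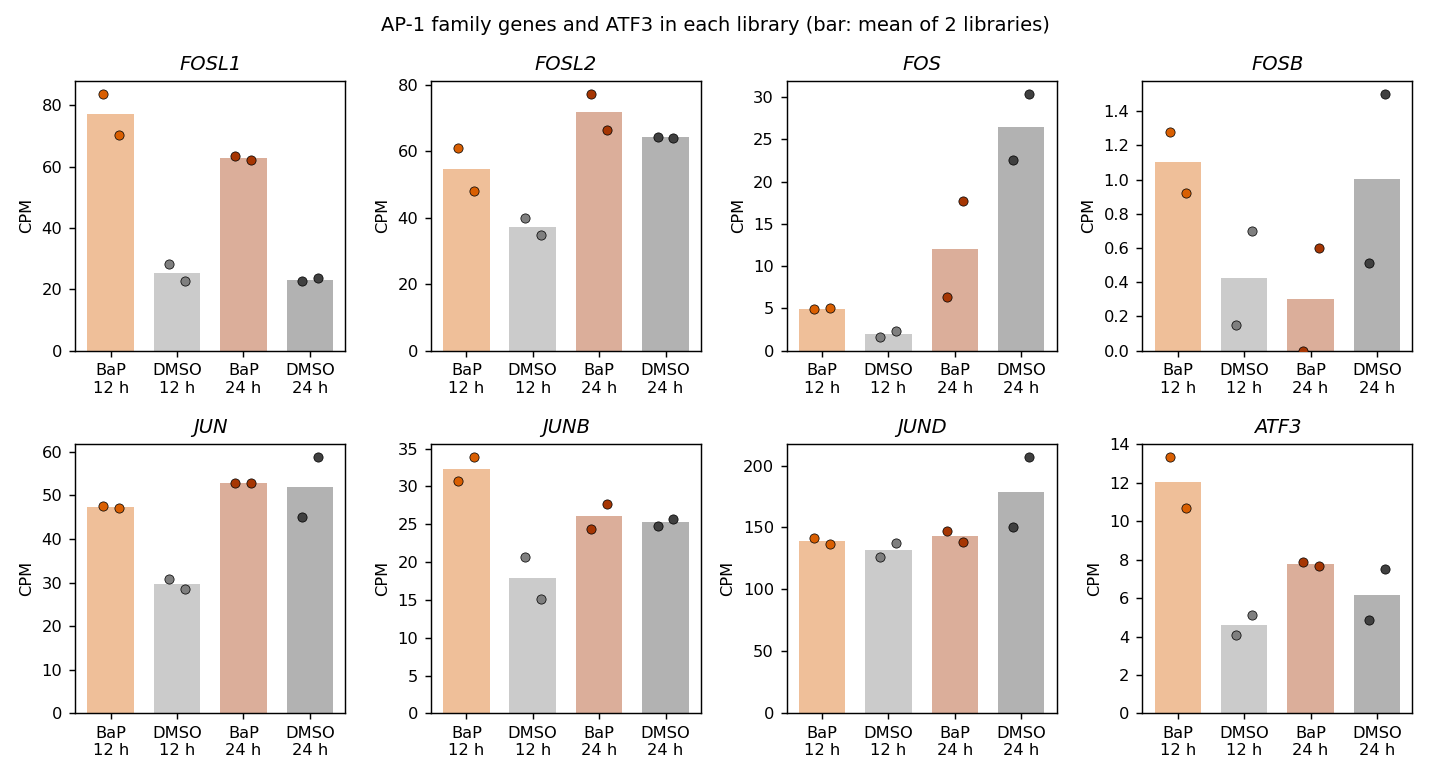
CPM of the 8 genes in each of the 8 libraries, 1 panel per gene with its own axis; points are libraries, bars the mean of 2. FOSL1 sits at 62.2 to 83.7 CPM in the BaP libraries and at 22.6 to 28.1 CPM in the DMSO libraries, and FOS is highest in the 2 DMSO 24 h libraries.

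At 24 h FOSL1 was the one gene of the 8 that was called, 1 higher and 0 lower, where 3.11% of all genes tested were called higher and 2.2% lower. The median log2 fold change of the 8 was 0.06, against 0.01 over all genes. JUN stood at 52.9 and 52.8 CPM in BaP 24 h against 45.1 and 58.9 CPM in DMSO 24 h, and JUNB at 24.4 and 27.7 CPM in BaP 24 h against 24.8 and 25.7 CPM in DMSO 24 h. In both genes the groups overlapped, with differences of 0.04 ± 0.14 (adjusted p = 0.91) for JUN and 0.08 ± 0.17 (adjusted p = 0.86) for JUNB on the log2 scale. FOSL2 stood at 77.3 and 66.4 CPM in BaP 24 h against 64.4 and 64.1 CPM in DMSO 24 h (0.14 ± 0.14, adjusted p = 0.63). ATF3 stood at 7.88 and 7.69 CPM in BaP 24 h against 4.84 and 7.50 CPM in DMSO 24 h (0.40 ± 0.26, adjusted p = 0.42). JUND stood at 147 and 139 CPM in BaP 24 h against 150 and 207 CPM in DMSO 24 h (-0.32 ± 0.14, adjusted p = 0.21). The FOSL2, ATF3 and JUND groups did not overlap, but none of these differences passed the threshold. The share of all genes with groups apart at 24 h was not counted.

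**Figure D2:**
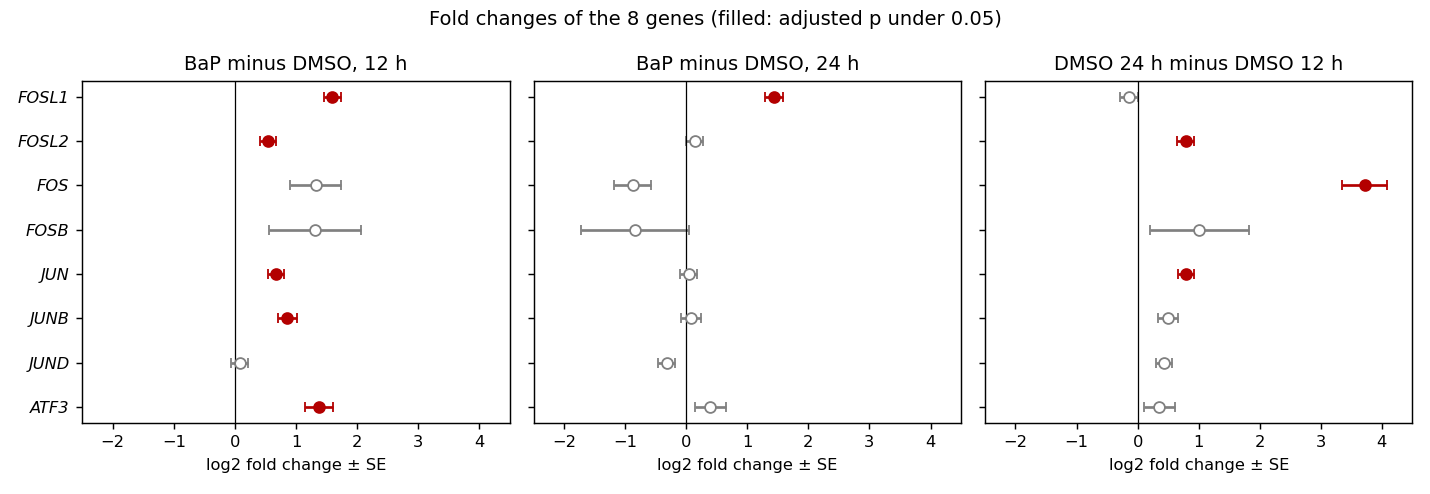
Log2 fold change with its SE (2 libraries per group) for the 8 genes, in BaP against DMSO at 12 h, BaP against DMSO at 24 h and DMSO 24 h against DMSO 12 h; filled points passed an adjusted p of 0.05. FOSL1 is filled in both BaP panels, at 1.60 and 1.44, and FOS in the DMSO panel, at 3.72.

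FOS rose in the DMSO cells over time. It stood at 22.6 and 30.4 CPM in DMSO 24 h against 1.62 and 2.31 CPM in DMSO 12 h, and rose 13.2-fold over time (log2 3.72 ± 0.37, adjusted p = 6.7e-04). With BaP it stood at 6.38 and 17.7 CPM at 24 h against 4.88 and 5.00 CPM at 12 h, a difference that was not tested. The BaP libraries were thus above DMSO at 12 h and below DMSO at 24 h, with no overlap at either time. Neither difference passed the threshold: 1.32 ± 0.42 at 12 h (adjusted p = 0.097) and -0.88 ± 0.31 at 24 h (adjusted p = 0.15). The lower of the 2 BaP 24 h values came from the shallowest library and rested on 17 counts, while the other rested on 265.

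The FOS calls changed with the fit. At 12 h FOS was called higher by DESeq2's Wald test (adjusted p = 0.022), in a fit of the 4 libraries compared (0.0020), with no filter on low counts (8.4e-05), with a replicate block (0.020), and when BaP 24 h replicate 1 (8.7e-04) or replicate 2 (0.0014) was left out. At 24 h it was called lower with no filter (-0.91, adjusted p = 3.6e-04), with a replicate block (-1.03, adjusted p = 0.023) and without BaP 24 h replicate 2 (-2.03, adjusted p = 0.0016). Without BaP 24 h replicate 1 the 24 h difference was -0.56 (adjusted p = 0.083).

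In DMSO cells over time, 3 of the 8 genes rose and 0 fell, where 2.27% of all genes tested were called higher and 1.01% lower. The median log2 fold change of the 8 was 0.64, against 0.01 over all genes. Beside FOS these were JUN, at 45.1 and 58.9 CPM in DMSO 24 h against 30.8 and 28.4 CPM in DMSO 12 h (0.79 ± 0.14, adjusted p = 0.0038), and FOSL2, at 64.4 and 64.1 CPM in DMSO 24 h against 39.8 and 34.7 CPM in DMSO 12 h (0.79 ± 0.14, adjusted p = 0.0039). The calls of JUN and FOSL2 were lost without DMSO 12 h replicate 2 (adjusted p = 0.055 and 0.065) and without DMSO 24 h replicate 2 (0.12 and 0.057). JUNB differed by 0.50 ± 0.16 (adjusted p = 0.12) and was called without DMSO 12 h replicate 1 (0.74, adjusted p = 0.048). JUND differed by 0.43 ± 0.14 (adjusted p = 0.11) and was called without BaP 24 h replicate 1 (0.41, adjusted p = 0.047) and without DMSO 24 h replicate 1 (0.65, adjusted p = 0.044). ATF3 differed by 0.36 ± 0.25 (adjusted p = 0.54) and FOSB by 1.01 ± 0.82 (adjusted p = 0.61). The DMSO comparison shares the DMSO 12 h libraries with BaP at 12 h and the DMSO 24 h libraries with BaP at 24 h, so these values are not independent of each other.

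The change of the BaP response between the times was tested directly, as the 24 h fold change minus the 12 h fold change. Of the 8 genes, 0 were called in either direction, where 0.461% of all genes were called higher and 0.0814% lower. The median over the 8 was -0.71 on the log2 scale, against 0.01 over all genes, and the difference was negative in each gene. Over all genes tested the difference was positive in 51.5%. All 8 differences come from the same libraries, so they are not independent of each other. At an unadjusted p under 0.05 there were 4 genes: FOS (-2.20 ± 0.52, adjusted p = 0.15), JUNB (-0.78 ± 0.23, adjusted p = 0.21), JUN (-0.63 ± 0.19, adjusted p = 0.23) and ATF3 (-0.98 ± 0.35, adjusted p = 0.32). Over all 14746 genes tested, 1403 had an unadjusted p under 0.05. Of the 8, FOSL1 had the smallest difference (-0.16 ± 0.20, adjusted p = 0.86). FOS was called by DESeq2's Wald test (-2.36, adjusted p = 0.0038), with no filter (5.0e-08), with a replicate block (0.015), and when BaP 24 h replicate 1 (-1.87, adjusted p = 0.0019) or replicate 2 (-3.36, adjusted p = 1.3e-04) was left out.

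Levels were compared between genes per length, as TPM, the authors' RSEM fractions of transcripts rescaled. Unlike the CPM, the TPM were not TMM-scaled, so their spread between libraries can differ from that in CPM. JUND was the most abundant of the 8 in every group, at 91.5 ± 1.1 TPM in BaP 12 h, 85.2 ± 18.5 TPM in BaP 24 h, 84.4 ± 3.0 TPM in DMSO 12 h and 109 ± 20 TPM in DMSO 24 h (SD, n = 2). FOSL1 came next in BaP 12 h (60.1 ± 6.4 TPM), BaP 24 h (44.6 ± 8.3 TPM) and DMSO 12 h (18.9 ± 3.2 TPM), and its library values did not overlap those of the genes above or below it. In DMSO 24 h the order was different, with JUN at 17.3 ± 2.4 TPM, FOSL1 at 16.8 ± 0.1 TPM, JUNB at 16.0 ± 0.4 TPM and FOS at 14.3 ± 2.3 TPM. There the values of JUN overlapped those of FOSL1, JUNB and FOS, and those of JUNB overlapped those of FOS. FOSL2 stood at 7.60 to 11.9 TPM over the group means, ATF3 at 2.70 to 7.30 TPM, and FOSB was lowest in every group at 0.091 to 0.352 TPM.

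FOSL1 held a larger share of the FOS group in the BaP libraries at both times. The 4 FOS genes summed to 78.8 and 70.4 TPM in BaP 12 h against 30.5 and 25.2 TPM in DMSO 12 h, and to 67.9 and 57.3 TPM in BaP 24 h against 41.8 and 44.5 TPM in DMSO 24 h. FOSL1 made up 82.0% and 78.9% of that sum in BaP 12 h against 69.5% and 66.0% in DMSO 12 h. At 24 h its share was 74.4% and 67.7% with BaP, against 40.4% and 37.7% with DMSO. FOS made up 3.56% and 4.16% of the sum in BaP 12 h against 3.06% and 5.07% in DMSO 12 h, so the shares overlapped there. At 24 h the FOS share was 5.53% and 14.2% with BaP, against 30.2% and 35.7% with DMSO. In the JUN group JUND held most of the sum in each library, at 69.2% to 71.1% in BaP 12 h, 70.7% to 73.1% in BaP 24 h, 76.8% to 81.5% in DMSO 12 h and 74.9% to 78.0% in DMSO 24 h. The JUN group summed to 130 and 131 TPM in BaP 12 h against 107 and 106 TPM in DMSO 12 h, and to 134 and 102 TPM in BaP 24 h against 127 and 158 TPM in DMSO 24 h. In BaP 24 h replicates 1 and 2, JUND stood at 98.3 and 72.1 TPM but at 147 and 139 CPM. JUN stood at 19.3 and 15.1 TPM there but at 52.9 and 52.8 CPM. Much of the gap between those 2 libraries in TPM sums is thus absent in CPM, while shares within a library do not depend on the scaling. The sums and shares are descriptions and were not tested.

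**Figure D3:**
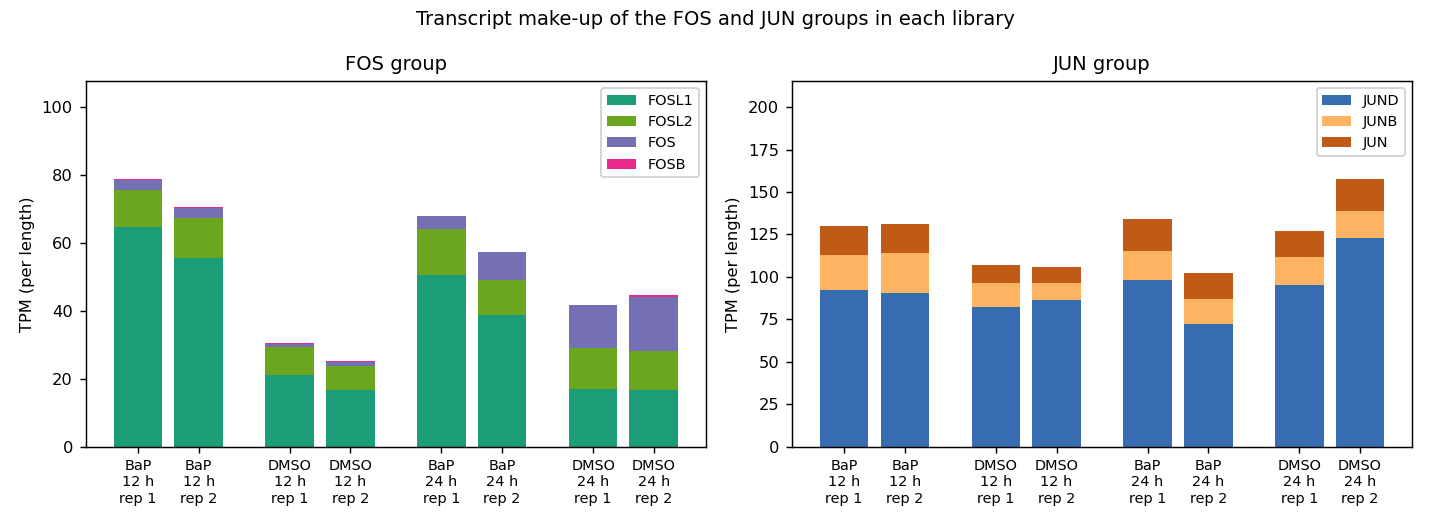
TPM of the 4 FOS genes and the 3 JUN genes stacked for each library, BaP left of DMSO at each time. FOSL1 fills most of the FOS group with BaP (67.7% to 82.0%), FOS takes 30.2% and 35.7% of it in DMSO 24 h, and JUND fills most of the JUN group throughout.

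The transcript files divide FOSL1 between its main transcript and FOSL1-202. FOSL1-202 took 19.7% and 21.8% of FOSL1 counts in BaP 12 h against 9.10% and 13.2% in DMSO 12 h, and 22.4% and 24.4% in BaP 24 h against 16.7% and 20.6% in DMSO 24 h. Its share was thus higher with BaP at each time, with no overlap, a description that was not tested. The nearest values at 24 h were 22.4% with BaP, from 37.8 of 169 estimated counts, and 20.6% with DMSO, from 26.2 of 127. That DMSO 24 h value lay between the 2 BaP 12 h values. ATF3 counts went mainly to ATF3-202, which held 83.3% of them over all libraries, and FOSL2 counts to 1 of 4 transcripts (96.9%). FOS, JUN, JUNB and JUND had 1 transcript each. FOSB lies across ERCC1, JUNB across HOOK2 and FOSL2 across an antisense RNA on the opposite strand, and no source used here says whether the counting used strand, so part of their counts could come from these neighbours. FOSL1 has a processed pseudogene, FOSL1P1, which held at most 2.02 counts in any library.

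Promoter windows were found in RefSeq (GRCh38.p14) for 7 of the 8 genes, all but FOSL1, whose promoter was thus not searched. The windows ran from 250 bases before the annotated start to 50 bases from it. They were searched on both strands for the AP-1 site TGANTCA, the cyclic AMP response element (CRE) TGACGTCA, the CRE-like site TGACNTCA that JUN and ATF dimers can bind and that includes the CRE, and the CArG box of serum response factor. Over 35116 RefSeq promoter windows of this length, 7.71% held the AP-1 site, 1.85% the CRE, 7.72% the CRE-like site and 1.29% the CArG box. The windows of JUN and FOSL2, which rose with BaP at 12 h and in DMSO over time, and of JUND, which was called in neither, are shown with the matches in capitals.
JUN, chr1:58783998-58784297, minus strand: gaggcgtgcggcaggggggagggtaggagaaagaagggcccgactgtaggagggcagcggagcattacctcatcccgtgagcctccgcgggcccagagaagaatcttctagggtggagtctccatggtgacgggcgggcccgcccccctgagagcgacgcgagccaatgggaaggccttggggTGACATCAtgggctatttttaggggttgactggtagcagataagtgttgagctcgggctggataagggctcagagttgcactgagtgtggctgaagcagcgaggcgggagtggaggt
FOSL2, chr2:28392608-28392907, plus strand: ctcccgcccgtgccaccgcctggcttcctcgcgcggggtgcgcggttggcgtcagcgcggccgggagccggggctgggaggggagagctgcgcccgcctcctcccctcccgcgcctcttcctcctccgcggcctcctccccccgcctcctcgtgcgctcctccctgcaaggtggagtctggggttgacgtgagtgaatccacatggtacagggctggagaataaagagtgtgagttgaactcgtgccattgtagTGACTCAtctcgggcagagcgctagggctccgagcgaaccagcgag
JUND, chr19:18281573-18281872, minus strand: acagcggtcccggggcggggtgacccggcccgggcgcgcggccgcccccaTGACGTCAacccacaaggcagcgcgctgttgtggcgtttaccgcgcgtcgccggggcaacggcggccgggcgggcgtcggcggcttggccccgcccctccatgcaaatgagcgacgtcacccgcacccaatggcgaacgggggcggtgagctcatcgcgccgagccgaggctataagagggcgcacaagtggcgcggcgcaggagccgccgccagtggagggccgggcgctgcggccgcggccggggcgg
The JUN window held a CRE-like site that begins 67 bases before the annotated start, the FOSL2 window an AP-1 site that begins 4 bases after it, and the JUND window a CRE that begins 200 bases before it. No match stood in the FOS, FOSB and JUNB windows. Sites more than 250 bases before the start, or with other letters, were not searched, so these promoters can hold sites that the search missed. ATF3 has a pair of windows, and one held a CRE-like site. ATF3-202, the transcript that took most ATF3 counts, starts 6348 bases before the nearer window's start and 43263 bases after the other, so neither window is the start of most ATF3 RNA counted here. The JUN transcript starts 280 bases before the start in the JUN window, and the main FOSL2 transcript and the JUND transcript start at theirs (GENCODE 29). A match in these letters is a description of sequence, not of a bound site.

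AP-1 dimers are known to act on genes of matrix breakdown, adhesion, cytokines and growth, and 26 such target genes were listed, of which 18 had enough reads. The list was chosen with earlier results of these data known. At 12 h 7 of the 18 rose with BaP and 0 fell, where 3.41% of all genes tested were called higher and 4.84% lower. At 24 h 8 rose and 0 fell, where 3.11% were called higher and 2.2% lower. The medians of the 18 were 0.40 at 12 h and 0.55 at 24 h on the log2 scale, against 0.02 and 0.01 over all genes. LIF, a cytokine of the interleukin-6 family, stood at 36.6 and 35.0 CPM in BaP 12 h against 12.8 and 9.43 CPM in DMSO 12 h (1.69 ± 0.17, adjusted p = 6.4e-06). At 24 h LIF stood at 26.3 and 27.0 CPM with BaP against 12.2 and 16.5 CPM with DMSO (0.94 ± 0.19, adjusted p = 0.0078), a call lost without BaP 24 h replicate 2 (adjusted p = 0.077) and without DMSO 24 h replicate 1 (0.21). SPP1, which encodes the secreted protein osteopontin, stood at 726 and 768 CPM in BaP 24 h against 358 and 327 CPM in DMSO 24 h (1.12 ± 0.13, adjusted p = 1.2e-04). At 12 h SPP1 rose by 0.70 ± 0.13 (adjusted p = 0.0025, and 0.064 without BaP 12 h replicate 2).

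IL11, another cytokine of the same family as LIF, rose by 1.27 ± 0.24 at 12 h (adjusted p = 0.0034, and 0.060 without BaP 12 h replicate 1). At 24 h the metallothionein MT2A rose by 1.18 ± 0.20 (adjusted p = 0.0035, and 0.081 without DMSO 24 h replicate 1). The chromatin protein gene HMGA1 rose by 0.75 ± 0.15 at 24 h (adjusted p = 0.0082, 0.14 without DMSO 24 h replicate 1, 0.10 without DMSO 24 h replicate 2 and 0.058 in a fit of the 4 libraries compared). The number of target genes that rose at 12 h was 3 without BaP 12 h replicate 1. At 24 h it was 3 without BaP 24 h replicate 2, 1 without DMSO 24 h replicate 1, 3 without DMSO 24 h replicate 2 and 4 in a fit of the 4 libraries compared. Matrix metalloproteinase genes, the classical AP-1 targets, were scarcely read: MMP1, MMP9, MMP10 and MMP13 stood at no more than 0.188 CPM, and MMP3 differed by -0.15 ± 0.46 at 12 h (adjusted p = 0.91). CCND1, the cyclin D1 gene, was abundant and not called at either time (-0.33 ± 0.13 at 12 h, adjusted p = 0.16, and 0.07 ± 0.13 at 24 h, adjusted p = 0.82). It was called lower at 12 h in a fit of the 4 libraries compared (-0.35, adjusted p = 0.04996), the 1 target gene called lower in that fit.

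In DMSO over time 2 of the 18 target genes rose and 0 fell, where 2.27% of all genes tested were called higher and 1.01% lower. The median of the 18 was 0.05, against 0.01 over all genes. The angiogenic factor VEGFA stood at 147 and 152 CPM in DMSO 24 h against 91.3 and 87.5 CPM in DMSO 12 h (0.74 ± 0.12, adjusted p = 0.0017). The count was 4 when either BaP 24 h library was left out and in a fit of the 4 libraries compared, and 5 with no filter. In the change of the BaP response between the times, edgeR called 0.461% of all genes tested higher and 0.0814% lower. There 0 of the 18 were called by edgeR with all libraries or DESeq2's Wald test. At an unadjusted p under 0.05 there were 5 of the 18, against 1403 of all 14746 genes tested. Without DMSO 12 h replicate 2 edgeR called 1, the growth factor gene AREG, lower (adjusted p = 0.010); AREG stood at 0 and 4.33 CPM in DMSO 12 h, so the library left in held no AREG count.

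The inhibitors that MAP kinase signalling induces as feedback, DUSP phosphatases and SPRY and SPRED proteins, were also followed. Of 13 tested, 5 rose and 0 fell in DMSO over time, with a median of 0.34 against 0.01 over all genes. Over all genes tested, 2.27% were called higher and 1.01% lower in that comparison. DUSP6, a phosphatase of the ERK kinases, stood at 264 and 337 CPM in DMSO 24 h against 111 and 112 CPM in DMSO 12 h (1.43 ± 0.14, adjusted p = 4.8e-05). SPRY1, an inhibitor of receptor tyrosine kinase signalling, stood at 67.2 and 79.9 CPM in DMSO 24 h against 36.7 and 36.7 CPM in DMSO 12 h (0.99 ± 0.13, adjusted p = 3.3e-04). DUSP5 rose by 1.67 ± 0.31 (adjusted p = 0.014) and DUSP1 by 1.40 ± 0.24 (adjusted p = 0.014). These last 2 calls were lost without DMSO 12 h replicate 1 (adjusted p = 0.11 and 0.053), without DMSO 12 h replicate 2 (0.088 and 0.097) and without DMSO 24 h replicate 2 (0.087 and 0.10), and in each of these fits 2 inhibitors were called higher.

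With BaP, 1 of the 13 inhibitors rose and 1 fell at 12 h, and 0 rose and 1 fell at 24 h, with medians of 0.19 and -0.01. Over all genes tested, 3.41% were called higher and 4.84% lower at 12 h, and 3.11% and 2.2% at 24 h. The medians over all genes were 0.02 and 0.01. DUSP6 stood at 125 and 141 CPM in BaP 12 h against 111 and 112 CPM in DMSO 12 h, and at 270 and 332 CPM in BaP 24 h against 264 and 337 CPM in DMSO 24 h. Its log2 fold change with BaP was 0.26 ± 0.14 at 12 h (adjusted p = 0.34) and 0.01 ± 0.14 at 24 h (adjusted p = 0.98). DUSP1, which was not called at 12 h, stood at 28.7 and 32.1 CPM in BaP 12 h against 19.3 and 15.5 CPM in DMSO 12 h (0.81 ± 0.24, adjusted p = 0.077). It was called higher with no filter (adjusted p = 1.3e-05), by DESeq2's Wald test (0.020), in a fit of the 4 libraries compared (1.6e-04) and when BaP 24 h replicate 1 (7.1e-04) or replicate 2 (9.3e-04) was left out. With the edgeR fits among these, 2 inhibitors were called higher at 12 h. At 24 h 1 was called higher, DUSP5, with no filter (0.68, adjusted p = 0.015) and without BaP 24 h replicate 1 (0.99, adjusted p = 0.0028). The 3 calls with all libraries were small and lost when single libraries were left out. DUSP8, a phosphatase of the JNK and p38 kinases, rose by 0.57 ± 0.16 at 12 h (adjusted p = 0.030, and 0.24, 0.15, 0.060, 0.15, 0.051 and 0.053 without replicates 1 and 2 of BaP 12 h, DMSO 12 h and DMSO 24 h, in that order). SPRY1 fell by 0.46 on the log2 scale at 12 h (SE 0.13, adjusted p = 0.038, and 0.23, 0.21, 0.12, 0.094, 0.060 and 0.060 without the same libraries). DUSP16 fell by 0.68 at 24 h (SE 0.16, adjusted p = 0.018, and 0.32 without BaP 24 h replicate 2, 0.21 without DMSO 24 h replicate 1 and 0.071 without DMSO 24 h replicate 2).

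**Figure D4:**
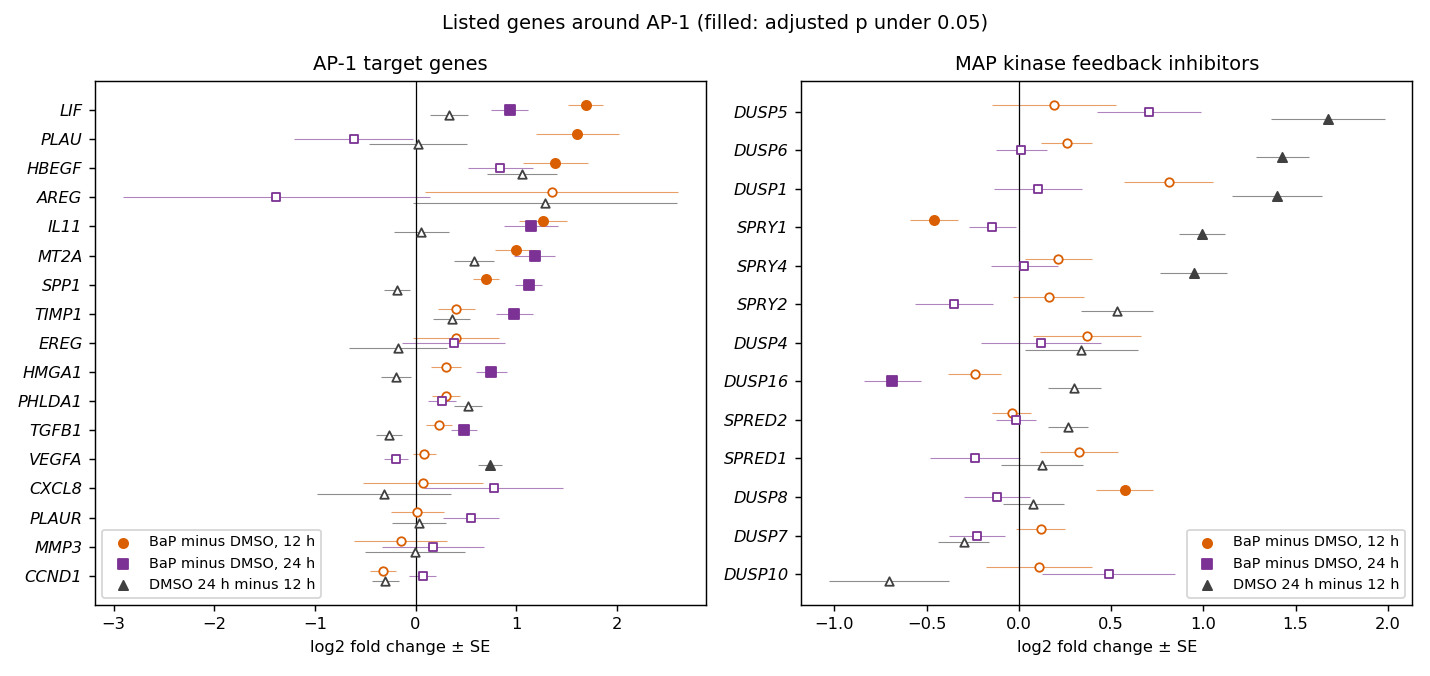
Log2 fold change with its SE for the AP-1 target genes tested, 1 of them left out, and the 13 MAP kinase feedback inhibitors tested, in BaP against DMSO at 12 h and 24 h and in DMSO 24 h against 12 h; filled symbols passed an adjusted p of 0.05. LIF is filled at 12 h (1.69) and 24 h (0.94), and DUSP6 in DMSO over time (1.43).

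Of 13 other zipper proteins that can pair with the AP-1 proteins, 3 rose with BaP at 12 h and 0 fell. Over all genes tested, 3.41% were called higher and 4.84% lower there. The median of the 13 was 0.14, against 0.02 over all genes. At 24 h 0 of the 13 were called by edgeR with all libraries or by DESeq2's Wald test. By edgeR, 3.11% of all genes tested were called higher at 24 h and 2.2% lower. An unadjusted p under 0.05 was found for 0 of the 13, against 2948 of all 14746 genes. The median of the 13 was 0.08, against 0.01 over all genes. Without BaP 24 h replicate 1 edgeR called 1 higher at 24 h, the stress gene DDIT3 (0.72, adjusted p = 0.039). MAFG, a small MAF protein, stood at 91.6 and 91.8 CPM in BaP 12 h against 52.2 and 59.8 CPM in DMSO 12 h (0.71 ± 0.13, adjusted p = 0.0022). MAFF, another small MAF protein, rose by 0.65 ± 0.16 (adjusted p = 0.016) and ATF5, a stress-response factor, by 0.50 ± 0.12 (adjusted p = 0.018). MAFF was not called without either BaP 12 h library (adjusted p = 0.090 and 0.17) or either DMSO 12 h library (0.071 and 0.057). ATF5 was not called without either BaP 12 h library (0.25 and 0.076) or DMSO 12 h replicate 1 (0.11). In DMSO over time 1 of the 13 rose and 0 fell, where 2.27% of all genes tested were called higher and 1.01% lower. This was MAFF (0.89 ± 0.16, adjusted p = 0.0047 by edgeR), a call lost without DMSO 24 h replicate 2 (0.82). When BaP 24 h replicate 1 or replicate 2 was left out 2 were called, the other being MAFK (0.53, adjusted p = 0.037, and 0.54, adjusted p = 0.036).

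Of 13 MAP kinases and kinases above them, 0 rose and 2 fell with BaP at 12 h, with a median of -0.09. Over all genes tested, 3.41% were called higher and 4.84% lower there, with a median of 0.02. At 24 h 0 of the 13 were called by edgeR with all libraries and the filter or by DESeq2's Wald test. By edgeR, 3.11% of all genes tested were called higher at 24 h and 2.2% lower. An unadjusted p under 0.05 was found for 2 of the 13, against 2948 of all 14746 genes. The median of the 13 was -0.17, against 0.01 over all genes. MAP2K6, a kinase that activates p38, stood at 3.25 and 3.00 CPM in BaP 12 h against 9.74 and 11.5 CPM in DMSO 12 h (-1.77 ± 0.28, adjusted p = 5.8e-04). At 24 h MAP2K6 differed by -0.99 ± 0.32 (adjusted p = 0.094) and was called lower with no filter (-1.02, adjusted p = 0.018), without BaP 24 h replicate 2 (-2.45, adjusted p = 0.042) and thinned (-1.75, adjusted p = 0.047). In DMSO over time it differed by -0.78 ± 0.26 (adjusted p = 0.13) and was called lower with no filter (adjusted p = 0.028), in a fit of the 4 libraries compared (0.030) and when BaP 24 h replicate 1 (0.030) or replicate 2 (0.036) was left out. MAP2K5, which activates ERK5, fell by 0.86 (SE 0.17, adjusted p = 0.0047, and 0.053 and 0.068 without BaP 12 h replicates 1 and 2). In DMSO over time 1 of the 13 rose and 0 fell, where 2.27% of all genes tested were called higher and 1.01% lower. This was MAPK3, the ERK1 gene (0.45 ± 0.12, adjusted p = 0.044 by edgeR). Its call was lost when any of 6 libraries was left out. Its difference was 0.43 and 0.43 without BaP 12 h replicates 1 and 2. It was 0.54 and 0.33 without those of DMSO 12 h, and 0.55 and 0.35 without those of DMSO 24 h. The list for serum response factor held 6 genes: its own, the ELK group, which acts with it on the FOS promoter, and MRTFA and MRTFB. Of these 6, 0 were called in any comparison by edgeR with all libraries or by DESeq2's Wald test. MRTFA, a coactivator of serum response factor, was called lower at 12 h in a fit of the 4 libraries compared (-0.37, adjusted p = 0.043) and without BaP 24 h replicate 1 (-0.36, adjusted p = 0.047), and lower in DMSO over time without BaP 24 h replicate 1 (-0.40, adjusted p = 0.044). At an unadjusted p under 0.05 there was 1 of the 6 with BaP at 12 h, 1 in DMSO over time and 0 in the other 2 comparisons. Over all 14746 genes tested there were 2892 with BaP at 12 h and 2415 in DMSO over time. In the change of the BaP response between the times, edgeR called 0.461% of all genes tested higher and 0.0814% lower. There 0 zipper partners, kinases or feedback inhibitors were called with all libraries by either tool. At an unadjusted p under 0.05 there were 2, 1 and 1 of them, against 1403 of all 14746 genes tested. Without BaP 24 h replicate 1 MAP2K5 was called higher there (0.96, adjusted p = 0.032), and without BaP 24 h replicate 2 DUSP1 was called lower (-1.29, adjusted p = 0.023).

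Several of the smaller calls in these lists were also lost with another method. DESeq2's Wald test did not call MAFF (adjusted p = 0.087), ATF5 (0.057), DUSP8 (0.17) and SPRY1 (0.091) at 12 h or MAPK3 in DMSO over time (0.061). Counts thinned to the shallowest library did not give a call for ATF5 (adjusted p = 0.13), MAP2K5 (0.063), DUSP8 (0.14) and SPRY1 (0.26) at 12 h, DUSP16 at 24 h (0.072) or DUSP5 in DMSO over time (0.064). MAPK3 was not called with DESeq2's size factors (adjusted p = 0.0505) or with a replicate block (0.058), and DUSP16 not in a fit of the 4 libraries compared (0.063).

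For each gene called in any comparison, the 3 genes with the highest Pearson correlation over the 8 libraries were taken among 10057 named genes with a mean of at least 5 CPM. The libraries share treatment, time and depth, so the values describe likeness in these libraries. Nearest to FOSL1 were EPHX1 (r = 0.99), CYP1A1 (0.99) and SLC48A1 (0.98). EPHX1, the microsomal epoxide hydrolase, stood at 217 and 195 CPM in BaP 12 h against 132 and 123 CPM in DMSO 12 h, and at 200 and 197 CPM in BaP 24 h against 114 and 115 CPM in DMSO 24 h. Nearest to FOS were TMED4 (0.96), RYBP (0.95) and ZFP36 (0.95). ZFP36, which encodes an mRNA decay factor, stood at 49.5 and 67.5 CPM in BaP 24 h against 59.0 and 77.3 CPM in DMSO 24 h, and at 39.3 and 38.4 CPM in BaP 12 h against 23.5 and 20.4 CPM in DMSO 12 h. Nearest to ATF3 were TBPL1 (0.98), TP53INP1 (0.97) and DNTTIP2 (0.97), to JUN ELF3, MAFF and DNAL4 (all 0.97), to FOSL2 PPP1R10, CEBPD and DTX3 (all 0.97), and to JUNB TRAF4 (0.94), NLRX1 (0.93) and EMILIN2 (0.92).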

How the data were processed

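Poly-A RNA of 8 HepG2 libraries was analysed. Per the submitters' processing notes the authors used Bowtie 0.12.7 and RSEM 1.1.7. The deposited expected counts per gene and transcript are not normalised. The deposited fractions are RSEM's length-corrected shares of transcripts, multiplied here to TPM. Annotation was Ensembl release 58 per the file names; the genome build: not given in the sources used here. Counts were rounded and fitted with edgeR 4.0.16 in R 4.3.3 (TMM, filterByExpr with minimum count 10 and minimum total 15, robust quasi-likelihood, 1 mean per group, two-sided), which left 14746 genes and all 8 genes of the report. SE is the fold change divided by the root of F. CPM use TMM-scaled library sizes. Up to 4 genes per list and comparison are named, those with the smallest p among those past the threshold, and MMP and other uncalled list genes were named after their values were seen. Some listed genes are counted but not reported here. The fits were tested on simulated data. The members and lists were chosen with earlier results of these data known. Alternatives were DESeq2 1.42.0 (size factors, Wald test), no filter, a replicate block, the compared libraries alone, leaving out each library, thinning to 2592234 counts and RSEM's posterior mean counts. Deposited interval bounds, whose level is not given, were not used.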

Additional observations from a re-analysis of the deposited data

How the results depend on the processing

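Of the alternatives run for the 8 genes' fold changes, 435 kept direction and call, 17 gained a call, 9 lost one and 5 changed sign. All 5 sign changes were in differences that were not called: JUN at 24 h without DMSO 24 h replicate 1 (-0.16; leaving out single libraries gave -0.16 to 0.23), JUNB at 24 h without BaP 24 h replicate 2 (range -0.049 to 0.13), FOSL1 in DMSO over time without DMSO 12 h replicate 1 (range -0.31 to 0.022), ATF3 in DMSO over time thinned (-0.26) and FOSL1 in the change between times without DMSO 12 h replicate 2 (range -0.32 to 0.013). Genes of the 8 called ranged from 3 to 6 at 12 h, 1 to 2 at 24 h, 1 to 4 in DMSO over time and 0 to 1 in the change when single libraries were left out. With no filter 2 were called at 24 h and 1 in the change, with the replicate block 2 and 1, and by DESeq2's Wald test 1 in the change. The 2 replicate numbers are not stated to mark a shared experiment, and same-numbered libraries deviated together at 12 h (r = 0.42) but not at 24 h (0.06) or in DMSO over time (-0.04), so the block stays an alternative; each extra call with it was FOS.

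Over all genes tested, 1216 were called at 12 h (800 by the Wald test, 633 thinned, 424 to 1667 without single libraries), 782 at 24 h (1238 with no filter, 379 with the compared libraries alone, 442 thinned, 169 to 1956), 483 in DMSO over time (805 with no filter, 853 with the compared libraries alone, 87 to 998) and 80 in the change (240 with no filter, 45 thinned, 28 to 348). Of 24 list results named, 9 kept their call in every alternative. By Spearman's correlation, 0 of the 3 nearest genes were shared for FOS, FOSL1, FOSL2, JUN and JUNB; the cause was not tested. A lone library left in a group is assumed to vary like the others. FOSB and the BaP 24 h values of FOS are limited by depth.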
